A study of Mus musculus with 24 samples.

Results

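The interaction of oxygen and transverse aortic constriction (TAC) asks for each gene whether the heart answers pressure overload differently in low oxygen. It is the difference between the TAC response in hypoxia and the TAC response in normoxia, (hypoxia TAC minus hypoxia sham) minus (normoxia TAC minus normoxia sham), on the log2 scale. All 24 of the 24 samples of the series enter it. They are hearts of wild-type (WT) C57/Bl6J mice in 4 groups of 6. Normoxia sham and hypoxia sham mice had sham surgery, and normoxia TAC and hypoxia TAC mice had a suture narrowing the aorta, which loads the left ventricle. All were killed on day 3, and RNA was taken from the apex of the heart. The groups are read from the sample titles. The labels give no oxygen level, length of hypoxia, age, sex, harvest time or sequencing batch, and each group is 6 libraries with no stated pooling.

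A positive interaction means that the TAC response was higher in hypoxia than in normoxia, and a negative one that it was lower. Because the same 4 group means can be subtracted in the other order, the interaction also equals the hypoxia difference after TAC minus the hypoxia difference after sham surgery. Each gene was therefore placed by where the oxygen difference lay. It lay between the sham groups where that difference was at least 2 times the size of the one between the TAC groups, between the TAC groups in the reverse case, and in both otherwise.

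Pressure overload makes ventricular muscle enlarge and switch on a stress programme that includes natriuretic peptides and calcineurin-regulated genes. The adult heart draws most of its energy from fatty acids. The circadian clock is a feedback loop in which the BMAL1 (gene Arntl) and CLOCK or NPAS2 proteins bind E-boxes and switch on Per, Cry, Nr1d and Ciart genes, whose products repress the loop. The output factors DBP, TEF and HLF then act on D-boxes.

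The promoter windows of 4 clock genes are shown because their interactions were called and each window holds an E-box or a D-box. They come from RefSeq on build GRCm38.p6, were matched by symbol, and run from 250 bases before to 50 after the start on the gene's strand. Ciart is at chr3:95882179-95882478 on the minus strand, Per1 at chr11:69098699-69098998 on the plus strand, Tef at chr15:81802423-81802722 on the plus strand and Per3 at chr4:151044616-151044915 on the minus strand. Capitals mark the E-box CACGTG in the first 3 and the D-box TTANGTAA in the last.
Ciart: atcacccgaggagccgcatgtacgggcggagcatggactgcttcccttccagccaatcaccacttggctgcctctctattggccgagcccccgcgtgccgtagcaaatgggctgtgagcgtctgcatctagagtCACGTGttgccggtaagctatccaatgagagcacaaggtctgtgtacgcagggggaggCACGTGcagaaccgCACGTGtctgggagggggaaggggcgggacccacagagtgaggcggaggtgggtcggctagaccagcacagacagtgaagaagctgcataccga
Per1: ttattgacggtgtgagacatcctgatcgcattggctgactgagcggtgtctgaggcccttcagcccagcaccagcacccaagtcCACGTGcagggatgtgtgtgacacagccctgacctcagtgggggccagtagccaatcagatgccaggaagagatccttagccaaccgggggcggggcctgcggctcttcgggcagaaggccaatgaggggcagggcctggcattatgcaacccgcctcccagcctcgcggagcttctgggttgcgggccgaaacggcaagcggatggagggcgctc
Tef: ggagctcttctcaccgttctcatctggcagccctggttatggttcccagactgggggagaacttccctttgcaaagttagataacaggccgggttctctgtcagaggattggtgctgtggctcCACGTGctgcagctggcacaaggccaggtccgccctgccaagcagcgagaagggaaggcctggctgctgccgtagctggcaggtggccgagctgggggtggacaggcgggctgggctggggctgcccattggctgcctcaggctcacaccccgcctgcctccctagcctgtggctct
Per3: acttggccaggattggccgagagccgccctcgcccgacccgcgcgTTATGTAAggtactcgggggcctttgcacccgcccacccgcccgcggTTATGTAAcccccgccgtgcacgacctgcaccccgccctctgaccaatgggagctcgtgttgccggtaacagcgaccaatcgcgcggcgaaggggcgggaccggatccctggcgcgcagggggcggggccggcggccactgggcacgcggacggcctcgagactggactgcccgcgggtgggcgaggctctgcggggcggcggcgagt

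The Ciart window held 3 E-boxes, starting 116, 58 and 44 bases before the start. The Per1 window shown held 1 at 166 bases and the Tef window shown 1 at 127 bases, and the Per3 window held 2 D-boxes at 205 and 158 bases. Per1 and Tef each have a second RefSeq window, with no E-box or D-box for Per1 and 1 E-box at 138 bases for Tef. The windows of the called genes Usp2 and Cry2 held neither motif. In all, 4 motifs were searched on both strands, in every RefSeq window of a gene. The E-box was in 5 of the 12 clock repressor and output genes that had a window, against 11.2% of the 11617 tested genes with one and 7.15% of all 32851 windows. Besides Ciart, Per1 and Tef these were Cry1 and Bhlhe41, which were not called (interaction 0.07 and 0.11). The D-box was in 1 of those 12 genes, against 1.93% of tested genes with a window and 2.32% of all windows. The cAMP response element TGACGTCA was in 1 of the 12 (3.26% of tested genes, 1.79% of all windows). The glucocorticoid element ACANNNTGT was in 0 of the 12 (5.57% of tested genes, 6.85% of all windows). Among genes with a called interaction the E-box was in 13.95% of those with a positive and 15.2% of those with a negative one. A D-box was in 3.10% and 0%, a cAMP response element in 3.88% and 7.14%, and a glucocorticoid element in 7.75% and 6.25% of these sets. No E-box and D-box overlapped in the windows shown, and a match of letters is a description of the window only.

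Total counts per library ran from 10136915 to 15058159, and 15027 of 40840 genes passed the filter on low counts. The 6 cardiomyocyte markers summed to between 31173 and 65322 CPM (counts scaled to library size with TMM) in every library. The spread between mice was wider after TAC. The biological coefficient of variation was 0.104 and 0.109 in sham mice of normoxia and hypoxia, against 0.367 and 0.283 in their TAC mice. Mitochondrial rRNA took 3.98% to 5.72% of counts in normoxia TAC and 2.03% to 3.92% in the other 3 groups.

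The interaction was called for 308 genes, 2.05% of those tested, at an adjusted p under 0.05 in edgeR's quasi-likelihood test. It was positive in 169 (1.12%) and negative in 139 (0.925%), and 134 of the 308 reached a 2-fold size. Called genes with a positive interaction had transcripts rich in G and C, with a median GC content of 56.1%, and those with a negative one had a median of 45.0%, against 50.5% over all genes tested. With the GC content of the transcripts taken out in each library, 75 genes were called (0.499%), 50 positive (0.333%) and 25 negative (0.166%), of which 70 were among the 308. The offset did not apply to 6 of the 75, whose GC content was not known. All 308 kept their sign in that fit. Without any filter on low counts 135 were called, and DESeq2 called 909 (5.88%), with all 308 among them.

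Leaving out 1 mouse moved the count between 93 and 946. Of the normoxia sham mice, leaving out replicate 2 gave 93, replicate 4 gave 141, replicate 5 gave 150 and replicate 6 gave 132. Of the hypoxia sham mice, leaving out replicate 1 gave 148, replicate 2 gave 143, replicate 3 gave 113, replicate 4 gave 105 and replicate 6 gave 162. The count therefore fell without most single sham mice. Of the normoxia TAC mice, leaving out replicate 4 gave 181, while leaving out replicate 1 or 2 gave 639 each and replicate 5 gave 684. Of the hypoxia TAC mice, leaving out replicate 1 gave 179, replicate 5 gave 114 and replicate 6 gave 170, while replicate 2 gave 946 and replicate 4 gave 606. In every one of the 34 fits run, 40 genes were called. The named ones among these 40 are Ciart, Per1, Per2, Usp2, Adam19, Ankrd63, Ankrd23, Ppl, Cpt1a, Qk, Tns2, Med25, Elf2, Asb5, Nectin2 and the predicted genes Gm35591 and Gm33649. For 4 of the 40, these predicted genes included, GC content was not known and the GC offset did not apply.

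The TAC responses in normoxia and hypoxia had opposite signs in 265 of the 308 called genes (86.0%), against 34.85% of all genes tested. A gene picked for a large difference is more likely to show opposite signs, so this share is a description. In 159 genes the fitted response was negative in normoxia and positive in hypoxia. Of these, 108 were called as falling in normoxia (10.6% of all genes tested were) and 71 as rising in hypoxia (6.46%). In 106 the response was positive in normoxia and negative in hypoxia, with 83 called as rising in normoxia (16.8%) and 27 as falling in hypoxia (4.68%). The other 43 responded with the same sign in both, and 32 of those were positive in both and larger in normoxia. Both responses were called in 33 of the 308 genes, only the normoxia one in 197, only the hypoxia one in 70 and neither in 8. Over all genes 27.4% were called for the normoxia response and 11.1% for the hypoxia one, each counted whatever the other did. A gene picked for a large interaction tends to have at least 1 large response. The counts of called responses are therefore descriptions too.

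The oxygen difference lay between the TAC groups in 158 of the called genes (51.3%), in both in 130 (42.2%) and between the sham groups in 20 (6.49%). In all 130 genes of the middle kind hypoxia had opposite signs after sham surgery and after TAC. Genes picked for a large interaction, with 2 oxygen differences of similar size, are nearly bound to show opposite signs. This count is therefore a description. The median size of the oxygen difference was 1.27 after sham surgery and 0.31 after TAC in the 20 genes, 0.15 and 0.66 in the 158, and 0.51 and 0.56 in the 130 (log2). Asking for a ratio of 3 in place of 2 left 13 between the sham groups and 107 between the TAC groups. Sorting by the adjusted p of each difference gave 10, 240 and 3, with 55 genes in neither. The difference between the sham groups was called in 11 of the 20, and 25 genes (0.166%) were called for it over all genes. The difference between the TAC groups was called in all 158, and in 1663 genes (11.1%) overall. A called interaction that lies mostly in 1 oxygen difference is nearly bound to have that difference large. The 11 of 20 and the 158 are therefore descriptions too. The counts of 25 and 1663 over all genes rest on a spread shared by the 4 groups. With 1 weight per group in limma's voom fit they became 1355 and 92, and the interaction was called in 264 genes, 195 of them among the 308.

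**Figure D1:**
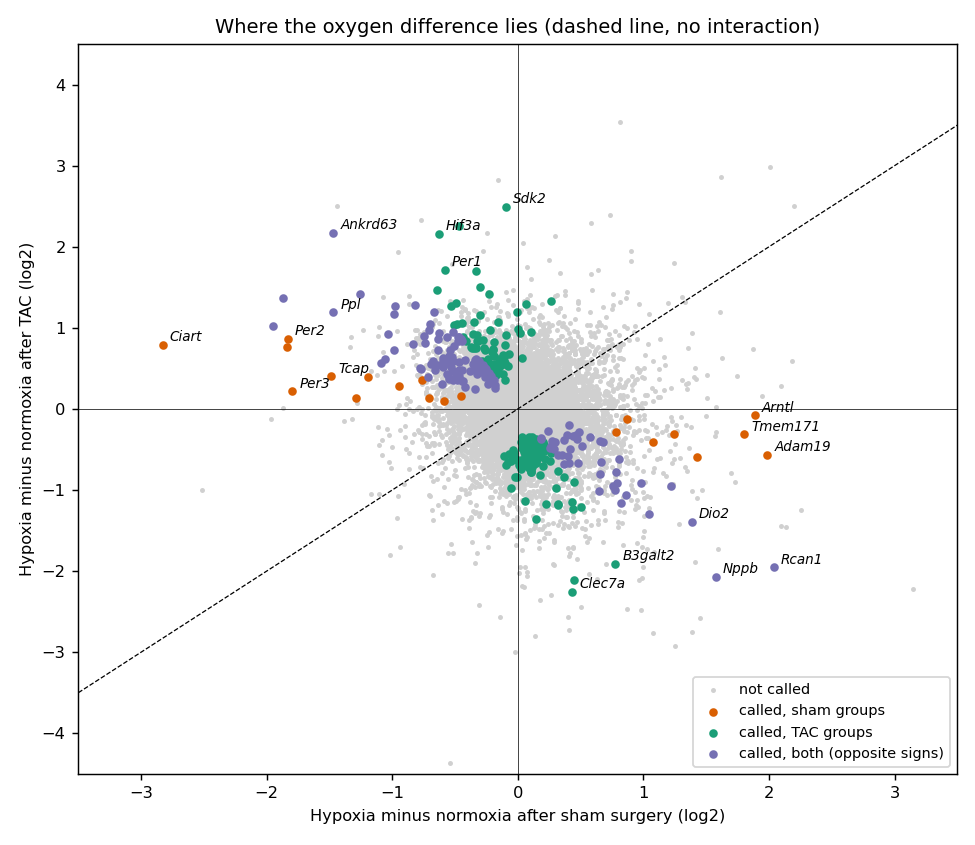
Each point is 1 of the 15027 genes tested, with the hypoxia minus normoxia difference after sham surgery on the x axis and after TAC on the y axis (log2, edgeR fit). The 308 called genes lie off the dashed line of no interaction. The 130 genes of the both class lie in the 2 quadrants of opposite sign, which selection for a large interaction favours.

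Clock repressors and output factors formed the list with the most calls. All 14 had a positive interaction, with a median of 1.38 on the log2 scale against -0.04 over all genes tested, and 7 of the 14 were called, all positive (1.12% of all genes tested). The labels give no harvest time. With GC content taken out 5 of the 14 were called, and 4 with the replicate number added as a block as well.

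Ciart, a repressor of BMAL1 and CLOCK, had the smallest p of all genes. It ran from 15.6 to 51.2 CPM (median 31.3) in normoxia sham, 4.19 to 8.27 (6.87) in normoxia TAC, 3.22 to 5.77 (4.37) in hypoxia sham and 8.49 to 14.5 (10.8) in hypoxia TAC mice. Groups that share surgery or oxygen did not overlap, and TAC mice lay below sham mice in normoxia and above them in hypoxia. The TAC response was -2.31 ± 0.25 (SE) in normoxia and 1.31 ± 0.25 in hypoxia, and the interaction was 3.62 ± 0.35 (edgeR adjusted p = 2.65e-06). The oxygen difference was the larger of the 2 after sham surgery, -2.83 against 0.79 after TAC.

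Per2, a core repressor, ran from 11.4 to 39.1 CPM (median 18.8) in normoxia sham, 10.4 to 16.5 (15.5) in normoxia TAC, 3.91 to 10.1 (5.58) in hypoxia sham and 17.7 to 32.3 (26.6) in hypoxia TAC mice. Hypoxia sham mice were the lowest group and overlapped no other. The interaction was 2.696 ± 0.39 (edgeR adjusted p = 0.00213), with a TAC response of 2.02 ± 0.29 in hypoxia that was called and one of -0.68 ± 0.27 in normoxia that was not (adjusted p = 0.0648).

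Per1, which also responds to glucocorticoids, differed between the TAC groups. It ran from 17.3 to 34.6 CPM (median 23.1) in normoxia sham, 9.04 to 28.3 (17.1) in normoxia TAC, 10.4 to 20.98 (16.5) in hypoxia sham and 21.2 to 90.5 (63.2) in hypoxia TAC mice. In hypoxia every TAC mouse was above every sham mouse, while the other pairs of groups overlapped. The interaction was 2.30 ± 0.42 (edgeR adjusted p = 0.0166).

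Usp2, a deubiquitinase under clock control, and Tef, an output factor, fell with TAC in normoxia, by 1.01 and 0.99 on the log2 scale. Usp2 ran from 231 to 401 CPM in normoxia sham and 75.4 to 221 in normoxia TAC, and from 122 to 159 in hypoxia sham and 162 to 288 in hypoxia TAC mice. TAC mice were thus below all sham mice in normoxia and above all of them in hypoxia. Its interaction was 1.66 ± 0.30 (edgeR adjusted p = 0.0154) and that of Tef 1.42 ± 0.31 (adjusted p = 0.0221). Tef lost its call with GC content and the replicate block together (adjusted p = 0.0540).

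Per3, the third Per gene, ran from 45.6 to 87.4 CPM (median 68.2) in normoxia sham, 5.95 to 51.2 (19.5) in normoxia TAC, 16.7 to 22.6 (18.4) in hypoxia sham and 20.1 to 41.7 (29.2) in hypoxia TAC mice. Sham mice of the 2 oxygen groups did not overlap, and TAC mice did. The interaction was 2.02 ± 0.46 (edgeR adjusted p = 0.0255). The call was lost with GC content taken out (adjusted p = 0.0507), also with the replicate block added (0.0565), and without any filter (0.0664). It was lost too without normoxia sham replicate 2 (0.0532) and without hypoxia sham replicate 4 (0.0522). Cry2, a repressor that lies outside the rule for named genes and was chosen after its values were seen, was the seventh call, at 1.19 ± 0.28 (edgeR adjusted p = 0.0281). Of the 7 members not called, Dbp, an output factor, had the largest estimate, 1.88 ± 0.62 (adjusted p = 0.0919), and the heme receptor gene Nr1d1 was at 0.55 ± 0.30 (adjusted p = 0.294).

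Clock activators mostly had negative values. Of 6 tested, 5 had a negative interaction and 2 were called, both negative (0.925% of all genes tested). Arntl ran from 5.47 to 23.6 CPM (median 11.1) in normoxia sham, 7.99 to 54.1 (19.2) in normoxia TAC, 40.8 to 51.8 (45.3) in hypoxia sham and 17.02 to 30.6 (23.5) in hypoxia TAC mice. Hypoxia sham mice stood above every normoxia sham and every hypoxia TAC mouse, and the TAC groups overlapped. Its interaction was -1.96 ± 0.50 (edgeR adjusted p = 0.0440), and that of Npas2, a partner of BMAL1, was -1.55 ± 0.41 (adjusted p = 0.0476). Both calls sat near the threshold. Arntl was called in 9 and Npas2 in 7 of the 24 fits that left out 1 mouse (adjusted p up to 0.0871 and 0.0927), and neither with GC content taken out (0.0678 and 0.0565). Both calls were also lost in the voom fit (0.0676 and 0.0873), with the replicate block (0.0685 and 0.0662) and without any filter (0.0986 and 0.0702). Each was called in 4 of the 9 alternative fits that kept all mice. Clock itself was at -0.66 ± 0.19 and was not called (adjusted p = 0.0643).

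**Figure D2:**
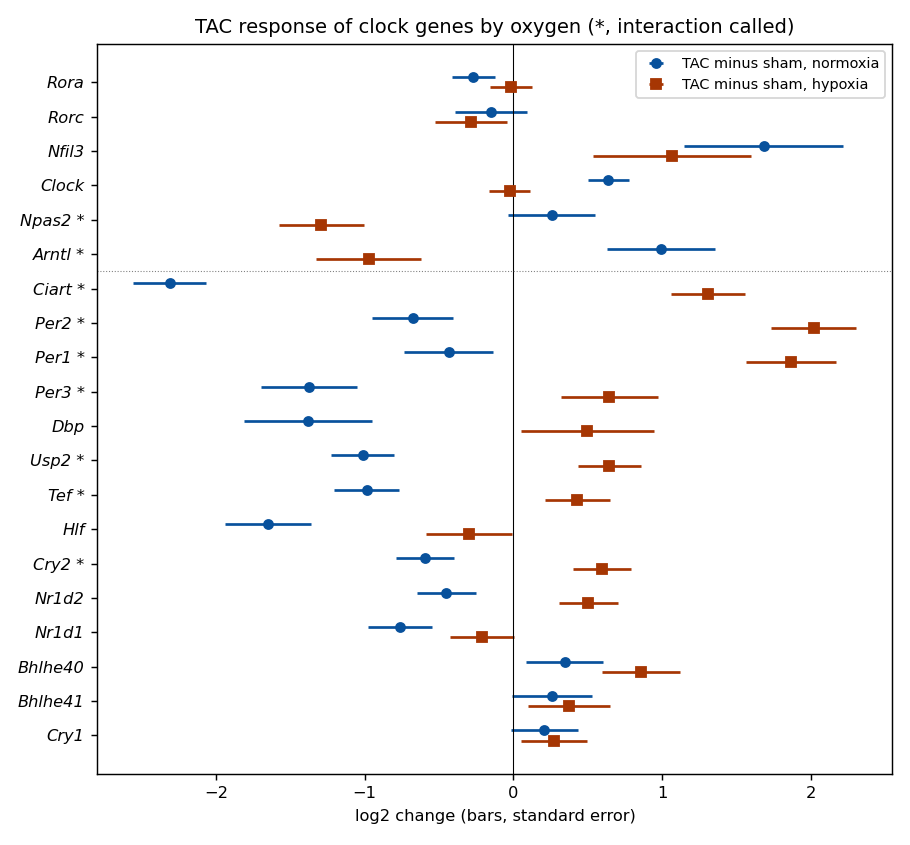
The TAC response (log2, TAC minus sham) of the 20 tested clock genes is drawn in normoxia (circles) and hypoxia (squares), with bars for the standard error from the edgeR fit and activators above the dotted line. Ciart goes from -2.31 in normoxia to 1.31 in hypoxia, and Arntl and Npas2 lie in the reverse order.

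Among hypertrophy and stress genes, 2 of the 18 tested were called, Nppb and Rcan1, both negative (0.925% over all genes). The fitted interaction was negative in 17 of the 18, with a median of -1.54. In bulk tissue fewer cells of a type and less RNA per cell cannot be told apart. Nppb, the B-type natriuretic peptide, ran from 23.3 to 54.1 CPM (median 45.1) in normoxia sham, 174 to 2518 (713) in normoxia TAC, 93.8 to 156 (125) in hypoxia sham and 19.1 to 578 (132) in hypoxia TAC mice. In normoxia the groups stood apart, while in hypoxia TAC mice lay on both sides of the sham mice. The response was 4.51 in normoxia and 0.87 in hypoxia, an interaction of -3.65 ± 0.89 (edgeR adjusted p = 0.0406).

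Rcan1, an inhibitor of calcineurin that calcineurin itself induces, ran from 15.5 to 48.0 CPM (median 21.8) in normoxia sham, 95.4 to 2550 (583) in normoxia TAC, 67.3 to 142 (99.8) in hypoxia sham and 32.9 to 697 (149) in hypoxia TAC mice. Hypoxia sham mice were above all normoxia sham mice, and the TAC groups overlapped. Its interaction was -3.99 ± 1.01 (edgeR adjusted p = 0.0437), the most negative among called genes. The Nppb and Rcan1 calls held in 9 and 10 of the 24 fits without 1 mouse, and were lost with GC content taken out (adjusted p = 0.0565 and 0.0562). In edgeR's test Nppa (-0.71 ± 0.56, adjusted p = 0.487), Ankrd1 (-1.72 ± 0.71, 0.170), Acta1 (-1.16 ± 0.55, 0.231) and Myh7 (-0.94 ± 0.41, 0.191) were not called, nor was the adult myosin Myh6 (0.53 ± 0.17, 0.0822). DESeq2 called Myh6 as positive (adjusted p = 0.0353; 2.99% of all genes in DESeq2). It called 5 genes of the hypertrophy list, all negative (2.88%), and the voom fit called 2, both negative (1.05%).

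Ankrd23, a titin-associated ankyrin protein of muscle that was not on the hypertrophy list, was called in all fits. It ran from 284 to 794 CPM (median 450) in normoxia sham, 1187 to 2860 (1990) in normoxia TAC, 872 to 1041 (947) in hypoxia sham and 473 to 1710 (1005) in hypoxia TAC mice. TAC raised it in every normoxia mouse above all sham mice, while the hypoxia groups overlapped, and the interaction was -1.90 ± 0.39 (edgeR adjusted p = 0.0189). Tcap, a Z-disc protein that caps titin, was the 1 called gene among 21 of contraction and calcium handling, and was positive (1.12% of all genes tested). It ran from 2875 to 4774 CPM in normoxia sham, 924 to 3985 in normoxia TAC, 997 to 1795 in hypoxia sham and 2047 to 5839 in hypoxia TAC mice. Hypoxia sham mice were below all normoxia sham and all hypoxia TAC mice, and the interaction was 1.89 ± 0.38 (edgeR adjusted p = 0.0176), or 0.0639 with GC content taken out.

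Adam19, a membrane metalloprotease, was the negative call with the smallest p, and its oxygen difference lay between the sham groups. It ran from 12.1 to 23.97 CPM (median 15.2) in normoxia sham, 29.4 to 104 (33.3) in normoxia TAC, 59.3 to 71.2 (66.2) in hypoxia sham and 15.04 to 43.4 (34.7) in hypoxia TAC mice. TAC mice lay above sham mice in normoxia and below them in hypoxia, with no overlap in either. The response was 1.51 in normoxia and -1.04 in hypoxia, and the interaction was -2.55 ± 0.40 (edgeR adjusted p = 0.00479). Tmem171 was also highest in hypoxia sham mice, at 4.74 to 8.68 CPM against 0.414 to 3.20 in normoxia sham mice, with an interaction of -2.12 ± 0.53 (adjusted p = 0.0406) that was called in 11 of 24 fits without 1 mouse. Zbtb16, a transcription factor induced by glucocorticoids, went from 164 to 235 CPM in normoxia sham to 58.9 to 132 in hypoxia sham mice. Its interaction was 1.59 ± 0.35 (edgeR adjusted p = 0.0236). The call was lost with GC content taken out (adjusted p = 0.0541) and with GC content and the replicate block together (0.0663). It was also lost in the voom fit (0.0509) and without any filter (0.0590). Zbtb16 was the 1 call among 15 glucocorticoid response genes (1.12% of all genes were called positive). In that list Fkbp5 (1.46 ± 0.58, edgeR adjusted p = 0.153) and Tsc22d3 (0.99 ± 0.31, 0.0747) were not called in edgeR's test. DESeq2 and the voom fit called Tsc22d3 (adjusted p = 0.0357 and 0.0480; 2.99% and 0.705% of all genes called positive).

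**Figure D3:**
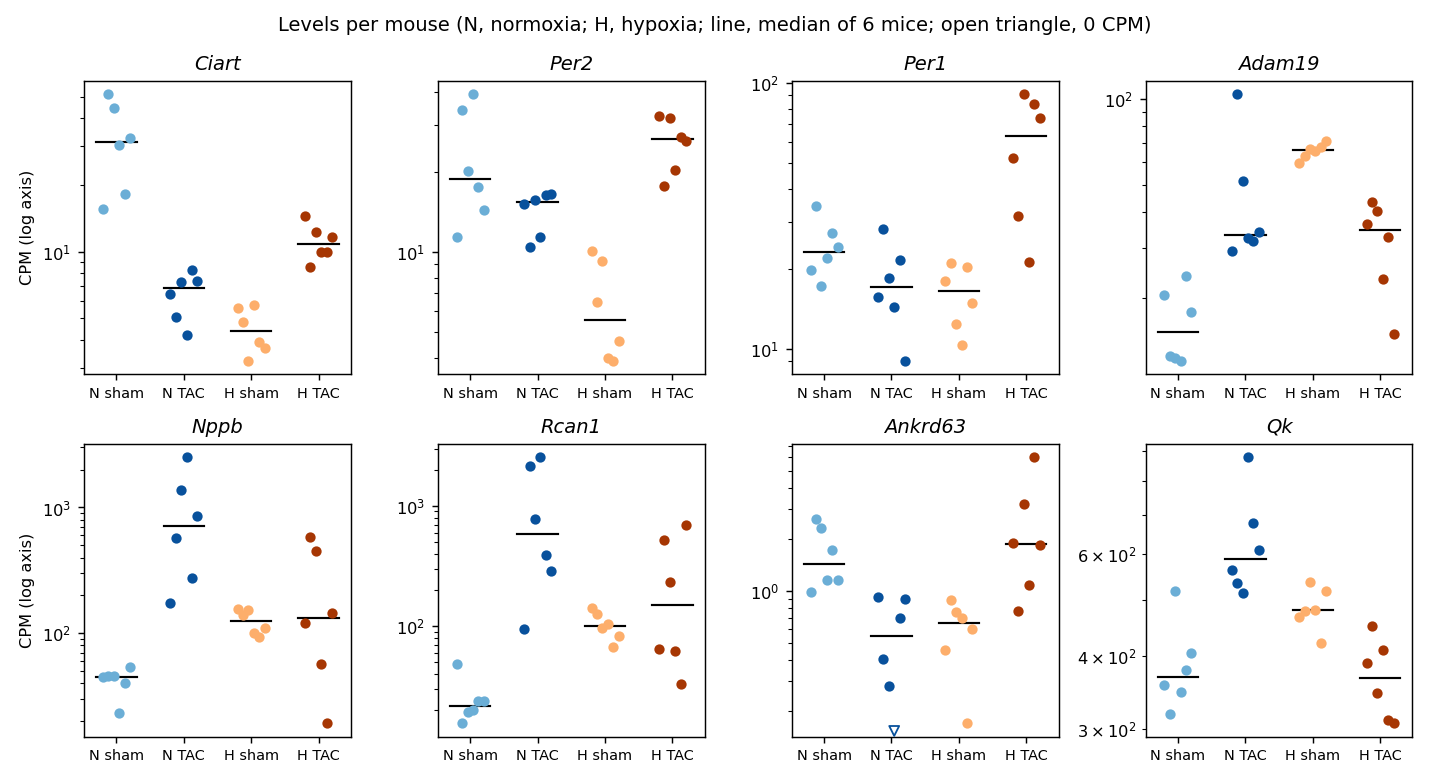
CPM per mouse on a log axis for 8 called genes, with 6 mice per group, lines at the group medians and an open triangle for the 1 normoxia TAC mouse at 0 CPM of Ankrd63. Ciart and Adam19 differ most between the sham groups, Per1 and Qk between the TAC groups, and Nppb, Rcan1 and Ankrd63 in both.

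Among 26 fatty acid genes 3 were called, all positive (1.12% over all genes). The fitted interaction was positive in 20 of them, with a median of 0.24. Cpt1a, which admits long-chain fatty acids to mitochondria, ran from 37.9 to 43.8 CPM (median 40.4) in normoxia sham, 15.1 to 32.5 (23.6) in normoxia TAC, 25.1 to 31.4 (26.2) in hypoxia sham and 22.5 to 51.0 (34.0) in hypoxia TAC mice. It was lower in both single-stress groups than in any normoxia sham mouse, and its interaction was 1.18 ± 0.25 (edgeR adjusted p = 0.0193). The fatty acid transporter Slc27a1 was at 1.63 ± 0.35 (edgeR adjusted p = 0.0221). The call of Slc27a1 was lost with GC content taken out (edgeR adjusted p = 0.0658), while that of Cpt1a was kept (0.0427).

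Among genes whose oxygen difference lay in both pairs of groups, Ankrd63 had the largest positive interaction of all called genes, 3.64 ± 0.70 (edgeR adjusted p = 0.0173). It was a low gene, at 0.985 to 2.62 CPM in normoxia sham, 0 to 0.921 in normoxia TAC, 0.170 to 0.893 in hypoxia sham and 0.763 to 6.02 in hypoxia TAC mice. Normoxia TAC mice lay below all normoxia sham mice, and the TAC groups overlapped. Ppl (periplakin, a linker of keratins to desmosomes) was at 2.66 ± 0.52 and Kcnh2, a potassium channel of repolarisation, at 2.10 ± 0.40 (both edgeR adjusted p = 0.0173). Arrdc2 was at 2.16 ± 0.47 (adjusted p = 0.0221) and Fam181b at 2.25 ± 0.50 (0.0236). The focal adhesion protein gene Tns2 (1.31 ± 0.23, edgeR adjusted p = 0.0103), the adhesion receptor Nectin2 (1.32 ± 0.25, 0.0173) and the ETS factor Elf2 (0.75 ± 0.13, 0.0109) were smaller and called in all fits. The Kcnh2 call was lost in the voom fit (0.0594) and the Arrdc2 call with GC content taken out (0.0560). The Fam181b call was lost with GC content taken out (0.0551), also with the replicate block added (0.0505). It was lost too without hypoxia sham replicate 4 (0.0506) and without hypoxia TAC replicate 5 (0.0502).

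The negative genes of this kind included Dio2 and Btc. Dio2, which turns thyroxine into active thyroid hormone, ran from 0.520 to 1.63 CPM in normoxia sham, 1.93 to 18.2 in normoxia TAC, 2.06 to 3.84 in hypoxia sham and 1.49 to 7.82 in hypoxia TAC mice. Every normoxia TAC and every hypoxia sham mouse was above all normoxia sham mice, and the interaction was -2.78 ± 0.65 (edgeR adjusted p = 0.0294). Btc, a ligand of the EGF receptor, was at -1.92 ± 0.46 (adjusted p = 0.0343), Adgre4, an adhesion receptor of myeloid cells, at -2.34 ± 0.51 (0.0221) and Pwwp3b at -1.98 ± 0.44 (0.0236). Dio2 was called in 18, Btc in 13, Adgre4 in 23 and Pwwp3b in 22 of the 24 fits that left out 1 mouse. Of these, Pwwp3b was called with GC content taken out, though its own GC content was not known.

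Where the difference lay between the TAC groups, Qk and factors of the ribosome were among the calls. Qk, an RNA-binding splicing regulator, ran from 319 to 517 CPM (median 368) in normoxia sham, 514 to 879 (587) in normoxia TAC, 422 to 536 (480) in hypoxia sham and 307 to 451 (367) in hypoxia TAC mice. The TAC groups did not overlap, and the interaction was -1.09 ± 0.19 (edgeR adjusted p = 0.0103). Pno1, a factor of small ribosomal subunit assembly, ran from 96.5 to 130 CPM in normoxia TAC and from 59.8 to 85.0 in hypoxia TAC mice (sham mice 67.5 to 79.6). Only the normoxia TAC mice stood above the rest, and the interaction was -0.69 ± 0.13 (edgeR adjusted p = 0.0154), or 0.0551 with GC content taken out. Of 20 cytosolic ribosomal protein genes 19 were negative (median -0.38), against 8092 of all 15027 genes (median -0.04). Called among the 20, both negative (0.925% of all genes), were 2, Rps14 (-0.52 ± 0.12, edgeR adjusted p = 0.0294) and Rps24 (-0.61 ± 0.15, 0.0406). Rps14 ran from 346 to 451 CPM in normoxia TAC and 232 to 326 in hypoxia TAC mice, and stayed called with GC content taken out (0.0181), while Rps24 did not (0.0868).

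The mitochondrial 16S rRNA gene mt-Rnr2 ran from 30363 to 51024 CPM in normoxia TAC, and from 13650 to 27074 in the other groups. Normoxia TAC mice were all above the rest, and the interaction was -0.82 ± 0.21 (edgeR adjusted p = 0.0434). With GC content taken out it was -0.42 (adjusted p = 0.270), and it was called in 9 of 24 fits without 1 mouse. Canx, a lectin chaperone of the endoplasmic reticulum, was lower in hypoxia TAC mice (433 to 544 CPM) than in any other TAC or hypoxia sham mouse (576 or more), with an interaction of -0.44 ± 0.11 (edgeR adjusted p = 0.0374). It too lost its call with GC content taken out (0.246). Asb5, a muscle gene of the SOCS box family, was at -1.49 ± 0.27 (edgeR adjusted p = 0.0154) and Med25, a Mediator subunit, at 1.10 ± 0.19 (0.0103), both called in all fits.

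Hif3a, a HIF subunit that can restrain hypoxia signalling, was the 1 call of 23 HIF target and pathway genes, a share near the background (2.05% of all genes called, 1.12% positive). It ran from 0.455 to 1.80 CPM in normoxia sham, 0.110 to 1.196 in normoxia TAC, 0.284 to 0.945 in hypoxia sham and 0.546 to 4.62 in hypoxia TAC mice. All pairs of groups overlapped, and the interaction was 2.79 ± 0.70 (edgeR adjusted p = 0.0408). Sdk2, a synaptic adhesion gene, was at 2.59 ± 0.66 (adjusted p = 0.0434), Tmem179 at 2.72 ± 0.65 (0.0313) and Flt1, the VEGF receptor 1, at 0.69 ± 0.18 (0.0427), the 1 call of 17 angiogenesis genes (1.12% of all genes called positive). These 4 were called in 8, 7, 15 and 8 of the 24 fits without 1 mouse, and none with GC content taken out (adjusted p from 0.0551 to 0.0795). B3galt2, a galactosyltransferase, was at -2.69 ± 0.61 (edgeR adjusted p = 0.0257) and lost its call in that fit (0.0580). The B3galt2 call was also lost without any filter (0.0702) and with GC content and the replicate block together (0.0794). Leaving out normoxia sham replicate 2 or 4 (0.0533 and 0.05005) or hypoxia sham replicate 4 (0.0506) lost it as well.

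Inflammatory and matrix genes had large estimates with wide errors. Of 16 tested cytokine, chemokine and adhesion genes 15 were negative, with a median of -2.40, and of 27 matrix genes 24 were negative, with a median of -0.84. None of either list was called in edgeR's test or in the voom fit. DESeq2 called 6 and 3 as negative (2.88% of all genes), and edgeR had 8 and 5 negative at an unadjusted p under 0.05 (11.1% of all genes). The chemokine Ccl2 ran from 11.97 to 909 CPM (median 48.2) in normoxia TAC and 13.2 to 123 (31.8) in hypoxia TAC mice. These groups overlapped, and its interaction was not called (-3.34 ± 1.15, edgeR adjusted p = 0.109). Il1rn, the interleukin-1 receptor antagonist, was likewise not called (-4.17 ± 1.76, edgeR adjusted p = 0.177). Nor were the matricellular genes Postn (-1.69 ± 0.59, edgeR adjusted p = 0.111) and Spp1 (-1.34 ± 2.52, 0.803). Spp1 had its higher maximum in hypoxia TAC mice, 258 CPM (median 14.8) against 124 (26.4) in normoxia TAC mice.

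Markers of other cell types that the tissue could hold were summed in each mouse. The 16 macrophage and monocyte markers summed to 261 to 342 CPM in normoxia sham, 397 to 1254 in normoxia TAC, 328 to 426 in hypoxia sham and 286 to 824 in hypoxia TAC mice. Of 14 tested, 13 were negative (8092 of 15027 over all genes) and 1 was called, as negative (0.925%). This was Clec7a, a receptor for fungal glucans, which ran from 1.10 to 13.7 CPM in normoxia TAC and 0.336 to 1.87 in hypoxia TAC mice (-2.69 ± 0.69, edgeR adjusted p = 0.0440; called in 6 of 24 fits without 1 mouse, and 0.0806 with GC content taken out). The 10 neutrophil markers summed to 7.09 to 110 CPM in normoxia TAC, 4.09 to 59.2 in hypoxia TAC and at most 9.19 in sham mice. Of 7 tested, 6 were negative and none was called in edgeR's test (3 negative at an unadjusted p under 0.05, 1 called in DESeq2). The 11 lymphocyte markers were low, with a median sum of 7.96 CPM after sham surgery and 6.48 after TAC in normoxia, against 7.73 and 2.90 in hypoxia. All 5 tested were negative and none was called in edgeR's test (1 at an unadjusted p under 0.05, 1 called in DESeq2). The 11 erythroid markers, with 1 at 0 in all libraries, summed to 643 to 1334 CPM (median 937) in normoxia sham and 436 to 4157 (1222) in normoxia TAC mice. In hypoxia they summed to 1073 to 2248 (1557) in sham and 1391 to 5534 (2711) in TAC mice. Of the erythroid markers, 7 of 8 tested were positive (median 0.54) and none was called in edgeR's test or DESeq2 (1 positive at an unadjusted p under 0.05). Neither erythroid gene of the panel was called, Slc4a1 at 2.73 ± 1.09 (edgeR adjusted p = 0.155) and Alas2 at 0.58 ± 0.59 (0.598). The part of these cells in the interaction was not tested.

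Over the 35 lists, 23 of 462 distinct tested members were called (4.98%, against 2.05% of all genes), in 12 lists. The lists were chosen with earlier results of these data known, and 7 of the 23 are clock repressors and output factors. Lists with no call in edgeR's test included interferon-stimulated genes (0 of 17 at an unadjusted p under 0.05 in either direction, against 21.1% of all genes), immediate-early genes (0 of 18), cell division (1 negative of 27), glycolysis (2 positive of 20) and nuclear oxidative phosphorylation (1 negative of 23). Over all 15027 genes 1508 were positive and 1663 negative (11.1%) at that p. In these 5 lists DESeq2 called 1 glycolysis gene as positive and no other, and the voom fit called none. The predicted genes Gm35591 (2.98 ± 0.40, edgeR adjusted p = 0.000589) and Gm33649 (-1.72 ± 0.29, 0.0103) were called in all fits, of which those with the GC offset left them unadjusted.

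The GC values behind these statements vary by group. Levels were set against the normoxia sham mean, and for each mouse the median of the top quartile of genes by GC minus that of the bottom quartile was taken (log2, genes of at least 1 CPM). This gave a median of -0.26 over the normoxia TAC mice (range -0.45 to -0.02). The hypoxia TAC mice had a median of 0.08 (-0.02 to 0.19). It was near 0 in normoxia sham mice, the reference (-0.06 to 0.07), and -0.07 (-0.14 to 0.06) in hypoxia sham mice. The 2 TAC groups touched only at their ends. In the lowest decile of GC content, 0% of genes were called positive and 3.07% negative, and in the highest decile 3.99% and 0%. With GC content taken out these were 0% and 0.23%, and 0.61% and 0.15%. Of the calls, 7 of the 20 between the sham groups, 29 of the 158 between the TAC groups and 34 of the 130 in both were then still called.

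**Figure D4:**
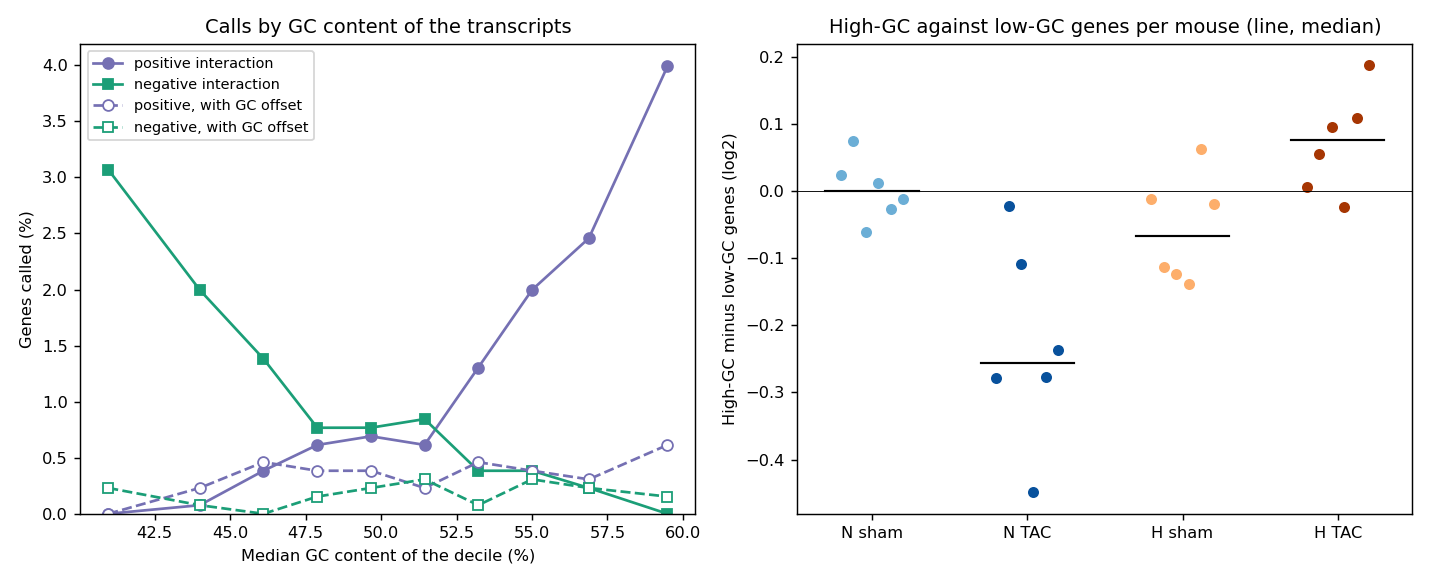
Left, the share of genes called positive or negative (%) in each decile of genes by GC content (x axis, median GC in %), in the main fit (filled) and with GC content taken out (open). Right, the log2 difference between high-GC and low-GC genes in each mouse, with lines at the group medians, where normoxia TAC mice are the lowest group at a median of -0.26.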

How the data were processed

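RNA-seq counts of 24 mouse hearts were analysed. The deposited values are whole-number read counts per gene symbol, not normalized, 1 column per library. The submitters' processing notes list build GRCm39, featureCounts (Subread 2.0.0), STAR 2.7.3a and bcl2fastq 2.20.0.422. The annotation and strand setting are not given in the sources used here, so reads of overlapping, antisense or near-identical genes cannot be assigned with certainty. Libraries were joined to samples by the numbers in the sample descriptions and grouped by title.

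Counts were fitted in R 4.3.3 with edgeR 4.0.16, using TMM scaling, a single model with a mean for each of the 4 groups and the quasi-likelihood F test in its robust form (20 residual degrees of freedom, biological coefficient of variation 0.241). The filter filterByExpr (minimum count 10, minimum total 15) kept 15027 of 40840 genes. A call is a p under 0.05 after Benjamini-Hochberg adjustment over all genes tested, and values after ± are standard errors. GC content is the median over the transcripts of a symbol in GENCODE M21 (GRCm38), known for 90.9% of tested and 93.5% of called genes. It entered one alternative fit as an offset per library, a natural cubic spline with 5 degrees of freedom, with no offset for genes of unknown GC content. In simulated data of 14887 genes with 200 changed, 51% of interactions of 1 and 81% of interactions of 2 (log2) were recovered, and 5 of 137 calls were false. Those genes changed in hypoxia TAC alone, with a spread per gene shared by the 4 groups and no GC trend. The wider spread after TAC and the GC shift of the real data were left out, so these rates may not carry over.

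Alternatives were RLE scaling, 2 other filters, tables without mitochondrial and haemoglobin genes, DESeq2 1.42.0, voomWithQualityWeights of limma 3.58.1, a replicate block, each library left out, and other rules for the sort. The comparison, the gene lists, the rule for named genes and the printed promoters were chosen with earlier results of these data known. The GC content fits, and the alternatives for the list members, the direction of the responses and part of the sort, were added after the values had been seen. The rule for named genes took the 12 largest positive and 12 largest negative interactions among called genes (mean CPM 1 or more, predicted and clone names left out), the 5 smallest p in each class of the sort, up to 5 called members of each list and a panel of 26 genes. It gave 62 genes, of which 1 is not reported here.

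No clear sign was seen that replicate numbers pair the mice, though the correlations below cannot exclude weak pairing. Over 36 same-numbered pairs the correlation of deviations ran from -0.33 to 0.36, and 5 of 24 libraries correlated best with their own number. No 2 libraries agreed within counting noise (lowest chi-square per gene 3.62). Nothing in the labels says how mice were housed or processed together. The p-values measure the spread between these mice and do not cover effects shared by a whole group. The numbers in the sample descriptions ran in a separate block for each group. Any effect that follows that order cannot be told apart from oxygen or TAC.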

Additional observations from a re-analysis of the deposited data

Results flagged for a closer look

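The 308 genes called for the interaction are those whose TAC response differed between normoxia and hypoxia by a test of the difference itself. Each named gene called above is one of them, and its values stand with it.

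Of 248 groups of 6 mice checked over the 62 named genes, 6 held a mouse far from the other 5, by the gap to the nearest as a share of the group's range, where chance flags about 1 in 20. Nppb was at 23.25 CPM in normoxia sham replicate 4, against 39.9 to 54.1 in the others. Myh7 was at 407.6 CPM in hypoxia sham replicate 5, against 250.3 to 276.5. Tcap was at 5839 CPM in hypoxia TAC replicate 6, against 2047 to 2920. Tmem171 was at 1.874 CPM in normoxia TAC replicate 4, against 4.58 to 6.18. Canx was at 433.1 CPM in hypoxia TAC replicate 6, against 500.04 to 544. Tns2 was at 141.1 CPM in normoxia sham replicate 3, against 170.8 to 191. These gaps were taken on the log2 scale.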

How the results depend on the processing

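Of the 62 named genes none changed the sign of its interaction in the 33 alternative fits. The count of 308 calls stayed within 1.5 times with RLE scaling (307), without mitochondrial and haemoglobin genes (315), at a mean of at least 1 CPM (341), in the voom fit (264) and with the replicate block (319, of which 257 were among the 308). It was 135 with no filter on low counts, 909 in DESeq2, 75 with the GC content offset, 80 with that offset and the replicate block, and 93 to 946 when 1 library was left out. The share in the class between the TAC groups, 51.3%, became 40.7% with no filter, 57.6% in the voom fit, 42.7% with the GC offset, 34.7% with a size ratio of 3, 77.9% by adjusted p and 38.9% to 63.4% without 1 library. The share in both, 42.2%, became 51.9% with no filter, 61.0% with a ratio of 3, 0.974% by adjusted p and 32.9% to 53.2% without 1 library. The share between the sham groups, 6.49%, became 13.3% with the GC offset, 3.25% by adjusted p and 3.28% to 11.4% without 1 library. Opposite TAC responses, 86.0%, became 93.3% with no filter, 79.2% in DESeq2, 90.0% with the GC offset and the block, and 75.6% to 93.5% without 1 library. List members called, 23, became 10 with no filter, 59 in DESeq2, 7 with the GC offset, 6 with the offset and the block, and 9 to 52 without 1 library. Clock repressors and output factors called, 7, became 4 with the GC offset and the block, and 5 to 10 without 1 library. The causes of these shifts were not tested. The fit with no filter tested 28942 genes and DESeq2 15471, against 15027 in the main fit and in the fits with the GC offset. Depth limits low genes such as Ankrd63, at 0 CPM in 1 mouse.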
